A study of Homo sapiens with 9 samples.

Results

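The ERBB receptors and their ligands were examined in RNA sequencing of OVCAR5 cells, an established human ovarian cancer line. Of the 60649 genes in the count table, 9 were members: the receptors EGFR, ERBB2 and ERBB3 and the ligands AREG, EREG, HBEGF, TGFA, BTC and NRG1. They were chosen by symbol, through the Ensembl identifier of each row. The rule itself used no measured value, but the members were chosen with earlier results of these data known. All cells had received lentivirus and puromycin selection. The 9 libraries fell into 3 groups of 3: NC, given as the control (parental cells in the labels, a control hairpin in the methods), and SM2 and SM4, both given as METTL3 knockdown. METTL3 is the catalytic subunit of the complex that writes N6-methyladenosine (m6A) on RNA. The hairpin behind each of SM2 and SM4 is not given in the sources used here, and a source field names other OVCAR lines for the SM4 libraries while the cell line field reads OVCAR5 throughout. Nothing in the labels says that replicates were separate cultures, so the p-values measure the spread between these libraries, which may be technical.

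ERBB receptors are cell surface tyrosine kinases that signal in pairs. EGFR binds AREG, EREG, HBEGF, TGFA and BTC, ERBB3 binds neuregulins such as NRG1 and has little kinase activity of its own, and ERBB2 has no known ligand and serves as the favoured partner of the others. The ligands are made as membrane-anchored precursors that proteases release, and the activated receptors signal through the RAS-ERK and PI3K-AKT routes that drive the growth of many epithelial cancers.

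METTL3 went against the labels, so groups are called here by label alone. Its level in CPM (counts scaled to the library total, with TMM factors) was 36.3, 34.4 and 36.6 in the NC libraries, 37.1, 39.8 and 40.0 in SM2 and 60.6, 57.5 and 62.4 in SM4. METTL3 was therefore highest in the libraries labelled SM4 and was lower than NC in none of the knockdown libraries. The log2 difference by the edgeR quasi-likelihood test was 0.12 for SM2 against NC (adjusted p = 0.12), 0.75 for SM4 over NC (adjusted p = 2.21e-09) and 0.63 for SM4 against SM2 (adjusted p = 7.46e-08). Whether labels were exchanged between groups, with the control among the libraries labelled SM4, is not settled here, and no library was moved. If so, SM4 would be the reference, and the differences of NC and SM2 from it would be those printed below for SM4 against NC and SM4 against SM2 with the sign turned. Every direction below is therefore one between labelled groups and is not evidence on loss of METTL3.

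Library totals ran from 44103272 to 63693728 counts, so that 1 CPM stood for 44.1 to 63.7 counts. SM2 replicate 3 stood apart from its group: the chi-square per degree of freedom between counts was 16.8 and 13.9 with the other SM2 libraries, against 4.23 to 6.1 in the 7 other pairs within groups. For the members, values without it are given where they changed a call. All 6 epithelial markers examined were above 1 CPM, with summed levels of 10937 to 11401 CPM in NC, 12267 to 12814 in SM2 and 11829.6 to 12577 in SM4. Keratins carried that sum. EPCAM had 694 to 721 CPM in NC, 595 to 655 in SM2 and 652 to 661 in SM4, and CDH1 had 796 to 830.4, 624 to 729 and 613 to 641, so both lay below NC. Markers of other cell types were low. Of 4 leukocyte markers 1 (CD14) reached a mean of 1 CPM, with a summed level of 5.43 to 6.32 CPM in NC, 8.13 to 8.94 in SM2 and 10.0 to 10.6 in SM4, while PTPRC, the pan-leukocyte antigen, was at 0 in the NC libraries and at most 0.0755 CPM elsewhere. Of 3 endothelial markers 1 (PECAM1) did, with a summed level of 5.42 to 5.85 CPM in NC, 7.79 to 8.9 in SM2 and 13.1 to 15.2 in SM4. Of 5 fibroblast markers 1 (COL1A1) did, and the summed level overlapped between groups at 21.3 to 24.7, 22.4 to 27 and 21.5 to 24.5 CPM. The part of these genes in the results below was not tested.

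AREG, EREG and BTC are neighbours on chromosome 4. With EPGN, a further ligand, they are the 4 protein-coding genes of a 486.1 kb stretch at chr4:74308470-74794523 (GRCh38). Their promoter windows, 250 bases before to 50 bases after the start, are shown because the first 2 genes fell in SM4 while BTC was not called. The ERBB2 window is shown because ERBB2 was higher in both SM2 and SM4, as was ERBB3, which has no window in the table, and because the window lies within the annotated span of PGAP3 on the other strand. Sequences are from RefSeq (GRCh38.p14), 5′ to 3′ on the strand of the gene, and 7 of the 9 members had a window. Capitals mark motif matches on either strand: TATAAA (a core element found just before some gene starts), TGACGTCA (a cAMP response element) and CCGGAAGT, or its reverse complement ACTTCCGG (an ETS family site). The motif TGACTCA (an AP-1 site) was searched too. The motifs were chosen with these sequences in view.
EREG promoter, chr4:74364895-74365194, plus strand: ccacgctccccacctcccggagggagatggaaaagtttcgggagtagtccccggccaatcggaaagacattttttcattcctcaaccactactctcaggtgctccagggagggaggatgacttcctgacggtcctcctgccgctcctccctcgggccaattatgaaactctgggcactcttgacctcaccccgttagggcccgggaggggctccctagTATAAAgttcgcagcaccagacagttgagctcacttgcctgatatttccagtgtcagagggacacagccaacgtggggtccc
AREG promoter, chr4:74444886-74445185, plus strand: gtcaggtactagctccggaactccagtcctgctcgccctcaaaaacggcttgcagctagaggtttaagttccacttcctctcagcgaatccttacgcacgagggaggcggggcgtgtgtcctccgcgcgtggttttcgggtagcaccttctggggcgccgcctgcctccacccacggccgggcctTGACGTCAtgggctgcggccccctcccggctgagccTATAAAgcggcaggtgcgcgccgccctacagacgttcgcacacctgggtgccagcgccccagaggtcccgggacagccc
BTC promoter, chr4:74794474-74794773, minus strand: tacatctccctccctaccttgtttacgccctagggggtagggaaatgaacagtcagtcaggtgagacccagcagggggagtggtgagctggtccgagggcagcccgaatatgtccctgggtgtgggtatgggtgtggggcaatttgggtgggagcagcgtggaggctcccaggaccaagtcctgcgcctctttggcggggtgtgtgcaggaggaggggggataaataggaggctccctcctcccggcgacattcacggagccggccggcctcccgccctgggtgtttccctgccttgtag
ERBB2 promoter, chr17:39687844-39688143, plus strand: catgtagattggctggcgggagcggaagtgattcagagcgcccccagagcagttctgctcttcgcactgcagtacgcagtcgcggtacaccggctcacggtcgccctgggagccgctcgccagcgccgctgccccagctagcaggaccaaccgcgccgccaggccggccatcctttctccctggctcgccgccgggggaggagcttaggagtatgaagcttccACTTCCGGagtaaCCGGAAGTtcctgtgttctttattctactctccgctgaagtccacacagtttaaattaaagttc
The EREG and AREG windows both held TATAAA, 32 and 29 bases before the start, and AREG also held TGACGTCA 65 bases before it. The BTC window held no exact match to any of the 4 motifs. It did hold ATAAATA, which resembles TATAAA in its letters, a short way before the start. The search took exact matches alone, so it does not show that BTC lacks such an element. The ERBB2 window held CCGGAAGT once on each strand, 14 and 27 bases before the RefSeq start around which it was drawn. Whether the canonical ERBB2 transcript used below starts there was not examined. Both matches also lie within the span of PGAP3, so they are not assigned to ERBB2 here. Among the windows not printed, that of EGFR at chr7:55109589-55109888 held TATAAA 146 and 36 bases before its start. It also held TGACTCA on both strands. The other EGFR window and those of HBEGF and TGFA held no exact match. Of 35116 windows of the same length, 11.5% held TATAAA, 1.85% TGACGTCA, 4.95% TGACTCA and 4.14% CCGGAAGT. A match describes the letters and does not show that a factor binds there.

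Scaled to the length of the canonical transcript, the most abundant members were AREG and EREG, ahead of every receptor. In NC the levels were 146 ± 8.88 CPM per kb for AREG, 133 ± 8.81 for EREG, 67.8 ± 2.63 for EGFR, 45.9 ± 1.79 for ERBB2 and 41.9 ± 1.67 for TGFA (SD, n = 3). ERBB3 followed at 13.3 ± 0.537, HBEGF at 10.1 ± 0.67 and BTC at 1.25 ± 0.226 CPM per kb. AREG and EREG overlapped in NC, at 137 to 155 and 123 to 138 CPM per kb, and no other neighbours in this order did. In SM2 ERBB2, at 53.7 to 56.4 CPM per kb, lay above EGFR, at 44.7 to 52.8, whereas in SM4 EGFR was again the higher at 68.5 to 72.3 against 55.4 to 57.4. That exchange of places depended on the length used. Divided by all merged exons instead, EGFR stayed above ERBB2 in SM2, at 31 against 24.4 CPM per kb, and TGFA moved above ERBB2 in the 3 groups.

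**Figure D1:**
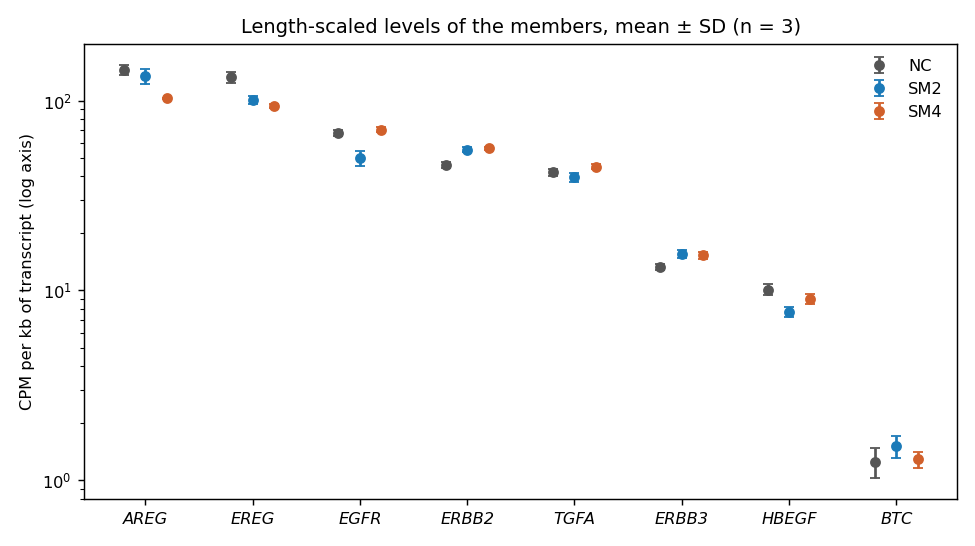
Levels of the 8 members above the count filter, in CPM per kb of canonical transcript on a log axis, as mean ± SD of 3 libraries for NC (grey), SM2 (blue) and SM4 (orange). AREG and EREG lie highest in each group and BTC lowest, near 1 CPM per kb.

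The receptors did not move as a unit. EGFR was lower in SM2 alone, while ERBB2 and ERBB3 were higher in both SM2 and SM4. In bulk RNA, fewer cells expressing a gene and less RNA per cell cannot be told apart. In SM2 against NC 5 of the 8 members tested were called at an adjusted p below 0.05, 2 higher and 3 lower, where 22.3% of the 19674 genes tested were called, 12.0% higher and 10.3% lower. With SM4 in place of SM2, 4 members were called, 2 higher and 2 lower, where 21.2% of all genes were, 11.0% higher and 10.2% lower. Between SM4 and SM2, 4 members were called, 3 higher and 1 lower in SM4, where 12.8% of all genes were, 6.04% higher and 6.76% lower. These comparisons share libraries and are not independent of each other. Since the members were chosen with earlier results known, the share of them called is a description and not a test. The median log2 difference over the 8 members was -0.10, 0.05 and 0.00, and over all genes it was 0.00 in each comparison. The median size of the difference, without its sign, was 0.27, 0.18 and 0.21 for the members and 0.16, 0.16 and 0.14 over all genes. The 3 libraries of one group did not overlap those of the other for 5 of the 8 members in each comparison, as for 35.2%, 38.4% and 28.3% of all genes.

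**Figure D2:**
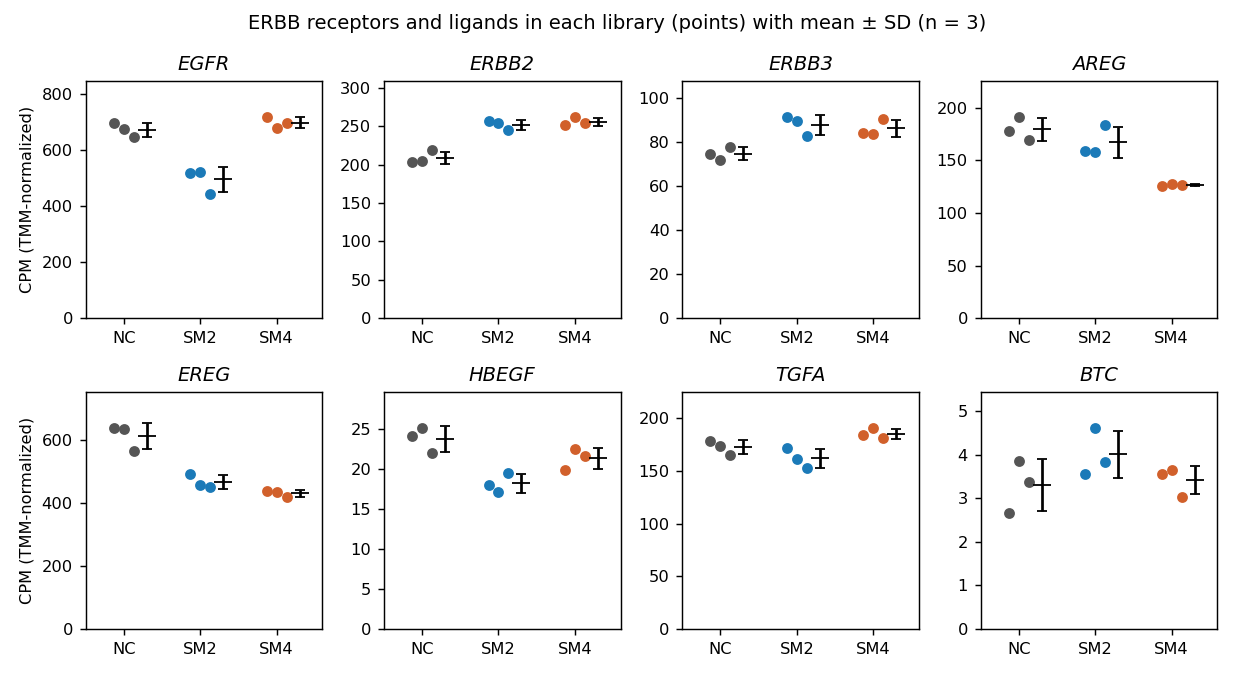
Level of each member in CPM in each library (points) with mean ± SD (n = 3), in the groups NC, SM2 and SM4, with each axis starting at 0. EGFR is low in the 3 SM2 libraries, AREG is low in the 3 SM4 libraries, and EREG is below NC in all 6 libraries of SM2 and SM4.

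EGFR (ENSG00000146648, chr7:55019017-55211628, plus strand), the receptor of most of these ligands, had 697, 674 and 645 CPM in NC, 519, 523 and 443 in SM2 and 717, 678 and 696 in SM4. All SM2 libraries were below all others, and SM4 overlapped NC. EGFR fell by 0.44 in SM2 relative to NC on the log2 scale (SE 0.0529, adjusted p = 3.05e-06), a change of -26.4%. SM4 against NC gave 0.05 (95% interval -0.06 to 0.16, adjusted p = 0.552). The direct comparison put EGFR 0.50 higher in SM4 than in SM2 (SE 0.0529, adjusted p = 1.37e-06). SM2 replicate 3 was the lowest, and without it the values were -0.36 against NC and 0.42 for SM4 against SM2, both still called. EGFR-AS1, which shares 186 exonic bases with EGFR on the other strand, had only 5 to 30 counts in any library.

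ERBB2 (ENSG00000141736, chr17:39687914-39730426, plus strand), the receptor without a ligand of its own, had 204, 205 and 219 CPM in NC, 257, 255 and 245 in SM2 and 252, 262 and 254 in SM4. Both labelled knockdown groups lay above every NC library and overlapped each other. The log2 difference was 0.27 in SM2 against NC (SE 0.0423, adjusted p = 8.07e-05) and 0.29 in SM4 against NC (SE 0.0423, adjusted p = 3.05e-05). SM4 against SM2 gave 0.02 (95% interval -0.07 to 0.11, adjusted p = 0.808). Genes on the other strand overlap ERBB2 at both ends, and whether counting used strand is not given in the sources used here. MIEN1 shares 571 exonic bases and had 1664 to 2376 counts. It was not called, at -0.07 in SM2 against NC (adjusted p = 0.483) and -0.14 in SM4 against NC (adjusted p = 0.134). PGAP3 shares 144 exonic bases and had 681 to 1238 counts. It rose with ERBB2, by 0.39 in SM2 (adjusted p = 0.000179) and 0.36 in SM4 (adjusted p = 0.0004), and its part in the ERBB2 values was not tested.

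ERBB3 (ENSG00000065361, chr12:56076799-56103505, plus strand), the neuregulin receptor, had 74.4, 71.7 and 77.7 CPM in NC, 91.1, 89.4 and 82.5 in SM2 and 84, 83.4 and 90.5 in SM4. It followed the order of ERBB2, with both groups above NC and no separation between them. The log2 difference was 0.23 in SM2 (SE 0.052, adjusted p = 0.00243) and 0.20 in SM4 (SE 0.0518, adjusted p = 0.00679). The call in SM4 was lost without NC replicate 2 (0.17, adjusted p = 0.0587) or SM4 replicate 3 (0.16, adjusted p = 0.0616). SM4 against SM2 gave -0.03 (95% interval -0.14 to 0.08, adjusted p = 0.791).

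EGFR and ERBB2 moved in opposite directions in SM2, while in SM4 only ERBB2 differed from NC by the test. The ratio of their CPM was 3.42, 3.29 and 2.95 in NC, 2.02, 2.05 and 1.81 in SM2 and 2.84, 2.59 and 2.74 in SM4. The 3 groups did not overlap, with SM2 lowest and SM4 in between. The ratio is free of library scaling but not of transcript length, so it describes the change between groups and not which receptor is the more abundant.

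**Figure D3:**
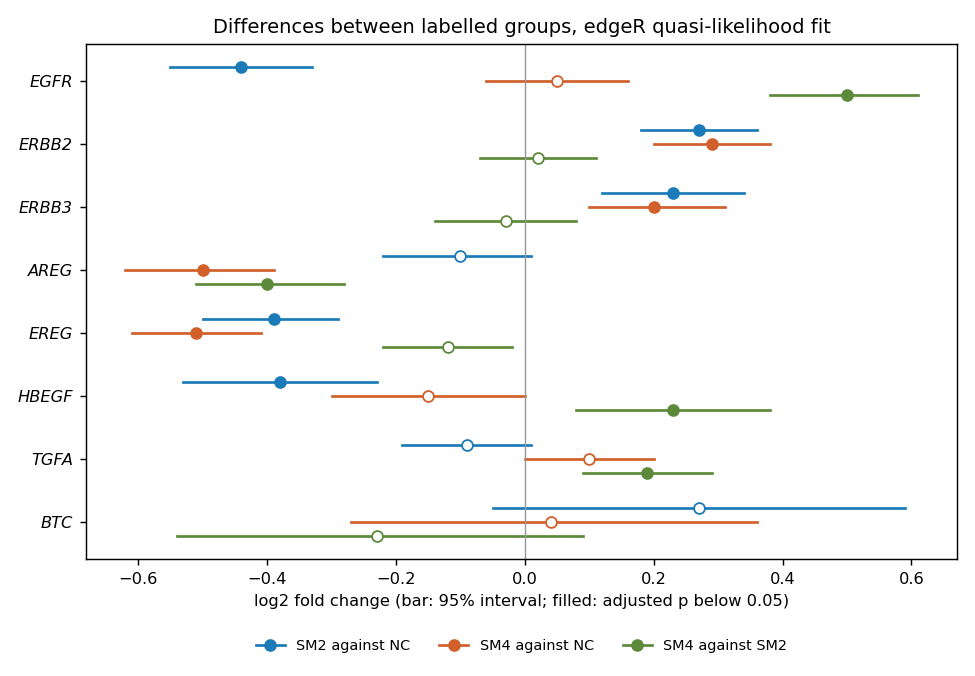
Log2 fold change of each member for SM2 over NC (blue), SM4 over NC (orange) and SM4 over SM2 (green), with 95% intervals from the edgeR fit and filled points at an adjusted p below 0.05. EGFR differs in both comparisons with SM2, ERBB2 and ERBB3 in both with NC, and the intervals of BTC are the widest.

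Among the ligands, none was called higher against NC. EREG was lower in both SM2 and SM4, AREG in SM4 and HBEGF in SM2. EREG (epiregulin, ENSG00000124882, chr4:74365145-74388749, plus strand) had 639, 637 and 567 CPM in NC, 493, 459 and 450.2 in SM2 and 438, 436 and 419 in SM4. All SM2 and SM4 libraries were below NC. EREG fell by 0.39 in SM2 (SE 0.0484, adjusted p = 4.13e-06) and by 0.51 in SM4 (SE 0.0484, adjusted p = 1.11e-07) on the log2 scale. SM4 lay below SM2 without overlap, but the difference of -0.12 (95% interval -0.22 to -0.02) missed the threshold with an adjusted p of 0.129. Without SM2 replicate 3 it was -0.14 and passed (adjusted p = 0.0295).

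AREG (amphiregulin, ENSG00000109321, chr4:74445136-74455005, plus strand) had 178, 191 and 169.5 CPM in NC, 159, 158 and 184 in SM2 and 126, 128 and 127 in SM4. The SM4 libraries were the lowest and lay within 2 CPM of each other, while SM2 overlapped NC through replicate 3. AREG fell by 0.50 in SM4 against NC (SE 0.0557, adjusted p = 1.00e-06), a change of -29.4%, and by 0.40 in SM4 against SM2 (SE 0.0557, adjusted p = 3.88e-05). SM2 against NC gave -0.10 (95% interval -0.22 to 0.01, adjusted p = 0.201). That comparison rests on SM2 replicate 3, without which it was -0.18 and called (adjusted p = 0.00366). The ratio of AREG to EREG within a library was 0.279 to 0.3 in NC, 0.287 to 0.304 in SM4 and 0.323 to 0.408 in SM2. The SM2 libraries lay above all others, while NC and SM4 overlapped.

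HBEGF (heparin-binding EGF-like growth factor, ENSG00000113070, chr5:140332843-140346603, minus strand) had 24.1, 25.1 and 22 CPM in NC, 18, 17.1 and 19.5 in SM2 and 19.9, 22.5 and 21.6 in SM4. SM2 lay below all other libraries. HBEGF fell by 0.38 in SM2 against NC (SE 0.0735, adjusted p = 0.000636), and SM4 against NC gave -0.15 (adjusted p = 0.154). SM4 was 0.23 above SM2 (SE 0.0734, adjusted p = 0.0441). That last call was lost in 7 of 16 alternatives, which are leaving out NC replicate 1 or 2, SM2 replicate 1 or 2, or SM4 replicate 2 or 3, and fitting the 6 libraries alone. The adjusted p then ran from 0.0528 to 0.172.

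TGFA (transforming growth factor alpha, ENSG00000163235, chr2:70447284-70554193, minus strand) had 179, 174 and 165 CPM in NC, 172, 161 and 153 in SM2 and 184, 191 and 181 in SM4. The SM4 libraries were above all others, and SM2 overlapped NC. TGFA was 0.19 higher in SM4 than in SM2 (SE 0.0478, adjusted p = 0.0099), a call lost without SM4 replicate 2 (0.17, adjusted p = 0.0622). Against NC it was not called, at -0.09 in SM2 (adjusted p = 0.207) and 0.10 in SM4 (adjusted p = 0.145). The SM4 value passed without SM2 replicate 3 (0.11, adjusted p = 0.0427) and with the 6 libraries alone (0.10, adjusted p = 0.041).

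BTC (betacellulin, ENSG00000174808, chr4:74744759-74794523, minus strand) was low, with 2.67, 3.86 and 3.38 CPM in NC, 3.57, 4.62 and 3.83 in SM2 and 3.55, 3.66 and 3.04 in SM4. The groups overlapped and no difference was called. The 95% interval of SM2 against NC ran from -0.05 to 0.59 and that of SM4 against NC from -0.27 to 0.36, so falls as large as those of EREG in the same comparisons lay outside both intervals. NRG1 (neuregulin 1, ENSG00000157168), the ERBB3 ligand, had 0, 2 and 4 counts in the NC libraries and 0 in the other 6, where a count of 0 allows up to 3 counts. It fell below the count filter and was not tested.

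The m6A mark is written mostly within a short motif whose favoured form is GGACU. In the canonical transcripts of the members these letters stood at 1.7 per kb in HBEGF, 1.21 in EGFR, 1.07 in ERBB3, 0.729 in TGFA, 0.658 in ERBB2, 0.65 in EREG and 0.377 in BTC. The median over 19637 tested genes was 0.912 per kb, with quartiles of 0.465 and 1.44. AREG held none in 1234 bases, as did 8.54% of tested genes with at least 1000 bases. EREG, lower in SM4 as AREG was, held only 3 in 4615 bases. A count of 0 in the much shorter AREG transcript therefore does not show that the 2 genes differ in density. The counts of letters do not say which sites carry the mark.

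Other genes of the pathway came from a list of 67, of which 65 were tested. Relative to NC, 14 were higher and 13 lower in SM2 and 12 and 10 in SM4, and relative to SM2, 9 were higher and 7 lower in SM4. The shares called were 41.5%, 33.8% and 24.6%, against 22.3%, 21.2% and 12.8% of all genes, and the median log2 difference was -0.01, 0.02 and 0.01. The list moved in both directions. It and its parts below were drawn up with earlier results of these data known. The shares called, here and below, are therefore descriptions and not tests of the lists.

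Of the 4 other family members tested, NRG2, a neuregulin, was higher in SM2 by 1.30 (adjusted p = 0.000326) and in SM4 by 0.75 (adjusted p = 0.0284) against NC. Its levels were only 0.916 CPM in NC, 2.23 in SM2 and 1.53 in SM4, and the SM4 call was lost without NC replicate 2 (0.61), NC replicate 3 (0.66) or SM4 replicate 3 (0.58). EGF, the founding ligand of EGFR, had 21.8, 21 and 19.3 CPM in NC, 17.1, 15.5 and 16.4 in SM2 and 20.8, 21.8 and 21.9 in SM4. It was lower in SM2 against NC by a log2 difference of -0.34 (adjusted p = 0.00101) and higher in SM4 than SM2 by 0.40 (adjusted p = 0.000419), with SM2 below all other libraries as for EGFR and HBEGF. ERBB4, the remaining receptor, was at 0.418 to 0.482 CPM and not called. EPGN and NRG3 were below the filter.

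Of the 5 genes of ligand shedding, 3 were above NC in SM2, 3 in SM4 and 1 was above SM2 in SM4, and none was lower. Of all genes 12.0%, 11.0% and 6.04% were called higher in these comparisons. FRMD8, a cofactor that stabilizes the iRhom-ADAM17 sheddase at the surface, had 52.7, 51.1 and 53.1 CPM in NC, 70.4, 70.6 and 67 in SM2 and 75, 79.1 and 81.8 in SM4. The 3 groups did not overlap. It rose by 0.41 in SM2 (adjusted p = 3.41e-06) and 0.59 in SM4 (adjusted p = 1.78e-08) against NC, and by 0.18 in SM4 against SM2 (adjusted p = 0.0154), the last lost without SM4 replicate 2 or 3. The iRhom genes RHBDF2 and RHBDF1, whose products carry ADAM17 to the surface, were called once each, RHBDF2 by 0.24 in SM2 (adjusted p = 0.00245) and RHBDF1 by 0.19 in SM4 (adjusted p = 0.0101). The RHBDF1 call was lost without NC replicate 1 or SM4 replicate 3. ADAM10, a sheddase of BTC and other ligands, was named after its values were seen. It was higher by 0.23 in SM2 (adjusted p = 0.00088) and 0.18 in SM4 (adjusted p = 0.00665), the latter lost without NC replicate 2 (adjusted p = 0.0617). ADAM17, the sheddase of AREG, EREG, HBEGF and TGFA, was at 100.1 CPM in NC, 96.3 in SM2 and 99.7 in SM4 and was not called.

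Of 26 adaptors and signal transducers, 4 were higher and 4 lower in SM2 than in NC, 3 and 2 in SM4 than in NC, and 2 and 0 in SM4 than in SM2. The shares called, 30.8%, 19.2% and 7.69%, stood against 22.3%, 21.2% and 12.8% of all genes, so that the latter 2 were below those of all genes. SRC, a non-receptor tyrosine kinase, was higher than NC in SM2 by 0.36 (adjusted p = 5.53e-05) and in SM4 by 0.23 (adjusted p = 0.00387). In SM4 the largest called differences from NC were those of SOS2, a RAS exchange factor (0.30, adjusted p = 0.00145), and NRAS (-0.26, adjusted p = 0.00101). SOS2 was also higher in SM2 than in NC (0.25, adjusted p = 0.00714), a call lost in 1 of 16 alternatives. In SM4 against SM2 they were the transcription factor STAT3 (0.21, adjusted p = 0.00165) and the ERK kinase gene MAP2K1 (0.14, adjusted p = 0.0471). That MAP2K1 call was the least secure, since it was lost in each of the 9 fits that left out 1 library except that without SM2 replicate 1. Against NC, MAP2K1 was lower in both SM2 (-0.30, adjusted p = 6.89e-05) and SM4 (-0.16, adjusted p = 0.0186). The SM4 call was lost in 4 of 16 alternatives.

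Of 16 genes of receptor turnover and feedback, 1 was higher and 5 lower in SM2 than in NC, 1 and 4 in SM4 than in NC, and 3 and 2 in SM4 than in SM2. The shares called were 37.5%, 31.2% and 31.2%, against 22.3%, 21.2% and 12.8% of all genes. ERRFI1, an inhibitor that binds the EGFR kinase domain, had 709.8, 705 and 688 CPM in SM2 against 568 to 579 in NC and 539.7 to 586 in SM4. It was higher in SM2 against NC by 0.29 (adjusted p = 1.53e-05) and lower in SM4 than SM2 (-0.31, adjusted p = 1.26e-05), and so ran opposite to EGFR in both comparisons. LRIG1, a membrane protein that promotes receptor degradation, was lower in SM4 than in NC (-0.32, adjusted p = 0.00344) and than in SM2 (-0.49, adjusted p = 0.000104). Of the ubiquitin ligase genes, CBLC (-0.27, adjusted p = 0.00133) and CBL (-0.24, adjusted p = 0.0158) were lower in SM2 than in NC, and CBLB was higher in SM4 than in NC (0.34, adjusted p = 0.0122). CBL was added after its values were seen, and its call was lost without NC replicate 1 (-0.19), NC replicate 2 (-0.23) or SM2 replicate 3 (-0.14). The CBLB call was lost without NC replicate 2 or SM4 replicate 3.

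Of 14 genes that respond to ERK signalling, 5 were higher and 3 lower in SM2 than in NC, 4 and 4 in SM4 than in NC, and 2 and 5 in SM4 than in SM2. The shares called were 57.1%, 57.1% and 50%, against 22.3%, 21.2% and 12.8% of all genes. ETV5, an ETS transcription factor, was higher in both, by 0.65 in SM2 (adjusted p = 1.47e-08) and 0.58 in SM4 (adjusted p = 5.18e-08). FOSL1, an AP-1 subunit, was lower in both, at -0.45 in SM2 (adjusted p = 3.38e-07) and -0.46 in SM4 (adjusted p = 2.34e-07), with 327, 351 and 331 CPM in NC, 236 to 255 in SM2 and 233 to 255 in SM4. FOS, another AP-1 subunit, was higher in SM4 by 0.52 (adjusted p = 0.00182) and in SM2 by 0.32 (adjusted p = 0.0481), at levels of only 5.42 CPM in NC, 6.75 in SM2 and 7.77 in SM4. The SM2 call was lost in 8 of 16 alternatives, among them leaving out NC replicate 2 or 3, SM2 replicate 1 or 3, or SM4 replicate 1 or 2. In SM4 against SM2 the immediate-early factor EGR1 (-0.39, adjusted p = 0.00151) and the phosphatase DUSP5 (-0.38, adjusted p = 5.62e-05) were lower. The group thus gave no single direction in any comparison.

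**Figure D4:**
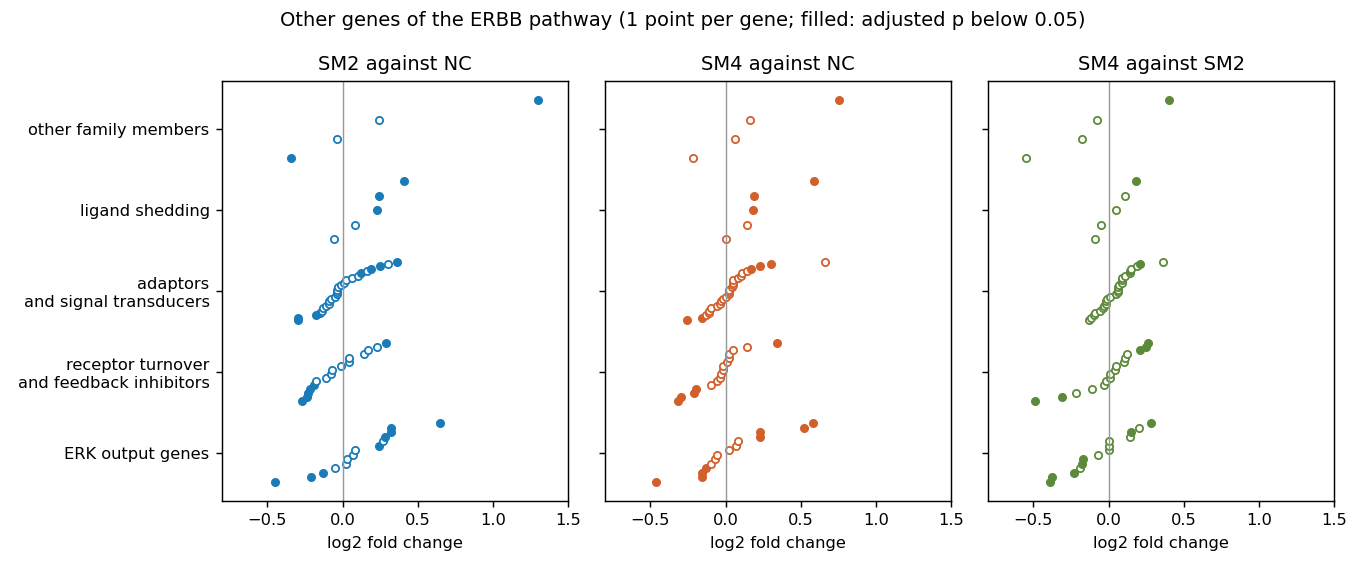
Log2 fold change of the 65 other pathway genes tested, 1 point per gene in 5 lists, with a panel for each comparison and filled points at an adjusted p below 0.05. Against NC, filled points lie on both sides of 0 in most lists, while those of ligand shedding lie above 0. In SM4 against SM2, filled points lie on both sides only for receptor turnover and feedback and for ERK output genes. Those of the other lists lie above 0 there.

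For each member called in at least 2 comparisons, the 2 protein-coding genes with the most similar pattern over the 9 libraries were found among 9443 genes, by the root mean square difference of centred log2 CPM. They were HIPK3 (0.0432) and SEMA3A (0.0485) for EGFR, U2AF2 (0.0218) and SLC12A7 (0.034) for ERBB2 and FLVCR1 (0.0299) and KDM4A (0.0312) for ERBB3. For the ligands they were PON2 (0.0579) and SNAPC1 (0.0616) for AREG, RINT1 (0.0463) and QKI (0.0515) for EREG and TMEM216 (0.0422) and MLX (0.0539) for HBEGF. The spread of the members themselves over the libraries was 0.123 for ERBB3 to 0.249 for EGFR (SD of log2 CPM). Each difference was smaller than that spread, which follows largely from taking the closest of 9443 genes. The points share libraries and scaling, and the likeness is a description.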

How the data were processed

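For each of 9 libraries the authors deposited a column of raw gene counts, not normalized. Per the labels and methods, reads were checked with FastQC, aligned to hg38 with hisat2 and counted with Subread (featureCounts), and fastp appears in the submitters' processing notes. Versions, gene annotation and use of strand are not given in the sources used here, and the labels and methods name different kits and read layouts. Of 60649 identifiers, 60463 matched GENCODE v44 without their version suffix, and unmatched ones held at most 0.0444% of a library's counts.

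In R 4.3.3, filterByExpr of edgeR 4.0.16 kept 19674 genes. TMM factors lay between 0.989 and 1.01. The quasi-likelihood F test was run on all 9 libraries with group as the term, with Benjamini-Hochberg adjustment over the genes kept (called below 0.05). Scripts were tested on simulated data. Alternatives were other size factors, DESeq2 1.42.0, other filters, the 6 libraries compared alone, a replicate block and leaving out each library. CPM without molecular identifiers carry more than counting error. Groups came from the library titles.

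Members and lists were chosen with earlier results of these data known. Beyond members and METTL3, up to 2 called genes with the largest difference and a mean of at least 1 CPM were named per list and comparison, and the 2 genes of at least 10 CPM most like each member called in 2 or more comparisons. A gene that this rule names is not reported here. Protein sequences, and promoters of ERBB3 and NRG1, were not used here.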

Additional observations from a re-analysis of the deposited data

Results flagged for a closer look

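The 4 members below differed between the groups given as METTL3 knockdown, by the direct edgeR comparison of SM4 with SM2. Since METTL3 was highest in SM4, labels may have been exchanged between groups, which is not settled here, and this comparison could then be one of control with knockdown. EGFR was 0.50 higher in SM4 on the log2 scale (adjusted p = 1.37e-06), in 3 of 3 libraries above all SM2 libraries. AREG was lower in SM4, with a log2 difference of -0.40 (adjusted p = 3.88e-05) and no overlap between the libraries. HBEGF was 0.23 higher in SM4 (adjusted p = 0.0441), without overlap. TGFA was 0.19 higher in SM4 (adjusted p = 0.0099), also without overlap.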

How the results depend on the processing

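Over 102 gene values and 16 alternatives, 1628 refits gave 1541 values with the same direction and call, 49 that lost and 17 that gained the call, and 21 that changed sign, none of them called. The cause was not tested. Leaving out 1 library at a time, members called in SM4 against SM2 ran from 2 (without SM4 replicate 2) to 5 (without SM2 replicate 3), against 4. Pathway genes called ran from 13 (without NC replicate 2) to 27 (without SM2 replicate 3) in SM4 against NC, against 22 (14 without SM4 replicate 3), and from 10 (without SM4 replicate 3) to 19 (without SM2 replicate 3) in SM4 against SM2, against 16. All genes called in SM4 against SM2 ran from 1574 (without SM4 replicate 1) to 2748 (without SM2 replicate 3), against 2518. Each has 1 library fewer. Signs changed over these fits in SM4 against NC for BTC (-0.08 to 0.17), ERRFI1 (-0.05 to 0.02), CBLC (-0.05 to 0.01), CBL (-0.04 to 0.07), ADAM17 (-0.03 to 0.02) and ERBB4 (-0.18 to 0.63), in SM2 against NC for ADAM17 (-0.11 to 0.02), ERBB4 (-0.10 to 0.71) and NRG4 (-0.33 to 0.16), and in SM4 against SM2 for FOSL1 (-0.03 to 0.03), ADAM17 (-0.03 to 0.10) and ERBB4 (-0.23 to 0.11). ADAM17 in SM4 against NC was also 0.01 with upper-quartile factors and 0.0015 with a mean of at least 1 CPM. Same-numbered libraries did not deviate together (correlations of -0.06 to 0.09), so the numbers were not taken to pair them. With the replicate block 5, 4 and 4 members were called in the 3 comparisons, as without it, and 29, 24 and 19 pathway genes. At this depth NRG1 was too rare to be tested, and BTC had the widest intervals of the members.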
